A study of Homo sapiens with 15 samples.

Results

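Rapamycin-treated no-mCherry cells were compared with eGFP cells to describe the transcriptome of cells in which the YAP-MAML2 fusion was present and mTORC1 was inhibited. The comparison used 6 of the 15 RNA-seq libraries of the series, chosen by their labels: 3 of no-mCherry cells treated with rapamycin for 5 h and 3 of eGFP cells. It covered the 18391 genes that passed a filter on low counts, 16367 of which have a gene symbol. All cells were HEK293, named HEK293T in the labels, which is a line from human embryonic kidney that takes up introduced genes readily. The no-mCherry cells stably expressed FKBP-mEGFP-YAP-MAML2, and the eGFP cells expressed eGFP without the fusion and were labelled mock, with no duration. Whether a line is a clone or a pool, and whether replicate libraries came from separate cultures, is not given in the sources used here, so p-values measure the spread between these libraries, which may be technical. The no-mCherry cells lack the Frb-tagged mCherry that the SPARK-OFF cells of the series carry, so rapamycin has no partner there that would dissolve the YAP-MAML2 condensates. The fusion, rapamycin with its vehicle against mock, and the cell line therefore differ at once between the 6 libraries and cannot be told apart from them alone. For that reason 3 libraries of no-mCherry cells with DMSO for 5 h and 3 of SPARK-OFF cells with rapamycin for 5 h were also used. The titles and treatments of the no-mCherry DMSO libraries name DMSO while their descriptions name rapamycin, and titles and treatments were followed.

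YAP-MAML2 joins the part of YAP1 that binds TEAD transcription factors to the activation domain of MAML2, a coactivator of Notch, and is found in tumours. TEAD factors bound by YAP switch on genes of matrix, adhesion and growth, such as CCN1, CCN2 and ANKRD1, and several feedback regulators of the Hippo pathway that restrains YAP. mTORC1 is the kinase complex that couples nutrients to growth, and rapamycin inhibits it through FKBP12. Active mTORC1 favours ribosome synthesis, nucleotide synthesis, glycolysis, lipid synthesis and the ATF4 amino acid programme, and holds back lysosome and autophagy genes.

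The 6 libraries held 14941777 to 20178517 counts (14720387 to 24797509 over the series). Libraries of the same group correlated at 0.986 to 0.987 in the rapamycin-treated cells and at 0.977 to 0.978 in the eGFP cells. More genes had at least 1 count in the rapamycin-treated cells (27336 to 28352) than in the eGFP cells (24900 to 25585), while mitochondrial transcripts took 3.80% to 3.93% and 3.67% to 3.81% of counts. Where no-mCherry DMSO libraries were used, library 3 stood apart from the other two in several genes named below, and calls that were lost without it are marked beside the gene or count.

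Promoter sequences are shown for genes on which the results turn, because TEAD, MYC and ATF4 act through short DNA motifs. They are the 250 bases before the RefSeq transcription start on GRCh38.p14, written 5′ to 3′ on the gene's strand. Capitals mark matches on either strand to the motif named with each gene. Matches to the other motifs are not marked, such as the TEAD motif GGAATG in IMP4 and the E-box CACGTG in IARS1. CCN2, ANKRD1 and THBS1 are YAP targets that rose, and capitals mark the TEAD motif GGAATG. In CCN2 (chr6:131951373-131951622, minus strand) it begins 169, 104 and 95 bases before the start. In ANKRD1 (chr10:90921088-90921337, minus strand) it begins at 220 and 128 bases, and in THBS1 (chr15:39580829-39581078, plus strand) at 46 bases.
CCN2: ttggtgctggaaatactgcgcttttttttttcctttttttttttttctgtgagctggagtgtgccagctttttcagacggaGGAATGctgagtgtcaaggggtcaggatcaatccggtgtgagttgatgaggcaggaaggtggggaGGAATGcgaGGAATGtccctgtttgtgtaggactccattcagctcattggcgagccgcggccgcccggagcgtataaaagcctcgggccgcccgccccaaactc
ANKRD1: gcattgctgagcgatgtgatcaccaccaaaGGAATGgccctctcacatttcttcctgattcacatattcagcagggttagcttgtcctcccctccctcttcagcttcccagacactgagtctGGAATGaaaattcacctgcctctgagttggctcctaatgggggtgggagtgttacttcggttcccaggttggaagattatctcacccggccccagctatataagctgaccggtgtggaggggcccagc
THBS1: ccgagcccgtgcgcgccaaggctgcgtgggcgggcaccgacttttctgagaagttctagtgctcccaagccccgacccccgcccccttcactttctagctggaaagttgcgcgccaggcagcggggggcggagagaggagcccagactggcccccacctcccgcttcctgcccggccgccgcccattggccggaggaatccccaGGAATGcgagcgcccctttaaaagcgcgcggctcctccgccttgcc

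IMP4, POLR1G and UTP18 are ribosome synthesis genes that fell, chosen after their values were seen, and capitals mark the E-box CACGTG, which MYC and related factors bind. It begins 203 bases before the start in IMP4 (chr2:130342647-130342896, plus strand). It begins at 12 bases in POLR1G (chr19:45406394-45406643, plus strand) and at 89 bases in UTP18 (chr17:51260296-51260545, plus strand).
IMP4: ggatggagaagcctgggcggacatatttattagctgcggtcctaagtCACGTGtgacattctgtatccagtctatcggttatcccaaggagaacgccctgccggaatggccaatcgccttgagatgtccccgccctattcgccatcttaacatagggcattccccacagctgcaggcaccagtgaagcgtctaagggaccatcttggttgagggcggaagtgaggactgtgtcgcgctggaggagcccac
POLR1G: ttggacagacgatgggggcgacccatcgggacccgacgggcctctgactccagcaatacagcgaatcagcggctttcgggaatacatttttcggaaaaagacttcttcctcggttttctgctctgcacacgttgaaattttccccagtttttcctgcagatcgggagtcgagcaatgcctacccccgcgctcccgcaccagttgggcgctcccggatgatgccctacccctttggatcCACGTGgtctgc
UTP18: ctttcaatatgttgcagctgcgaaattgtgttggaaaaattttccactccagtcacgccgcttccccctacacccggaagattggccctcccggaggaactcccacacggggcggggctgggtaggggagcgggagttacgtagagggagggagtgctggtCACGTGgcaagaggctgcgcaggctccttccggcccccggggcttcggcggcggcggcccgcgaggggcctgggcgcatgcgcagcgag

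IARS1, the cytosolic isoleucine tRNA synthetase, also fell and carries a match to the amino acid response element TGATGNAA, which ATF4 binds as a dimer, on the opposite strand. The match begins 13 bases before the start (chr9:92293698-92293947, minus strand).
IARS1: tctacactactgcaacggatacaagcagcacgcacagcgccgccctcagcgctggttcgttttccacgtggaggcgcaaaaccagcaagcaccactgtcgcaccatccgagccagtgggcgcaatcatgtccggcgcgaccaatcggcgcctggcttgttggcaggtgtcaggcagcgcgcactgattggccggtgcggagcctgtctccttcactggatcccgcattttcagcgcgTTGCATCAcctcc

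Matches were counted on both strands of 300 bases, from 250 before to 50 after each start. The TEAD motif was present in 7 of 17 core YAP targets with a RefSeq promoter (41.2%), in 60 of 423 higher and 20 of 308 lower protein-coding genes called below (14.2% and 6.49%), and in 10.7% of all 11327 protein-coding genes tested with a promoter. The E-box was present in 24 of 63 ribosome biogenesis genes (38.1%), in 3 of 60 cytosolic ribosomal protein genes (5%), in 49 of 308 lower protein-coding genes (15.9%) and in 9.77% of all tested. The amino acid response element was present in 11 of 35 genes of the ATF4 list (31.4%) and in 1.71% of all tested. It was present in 14 of 423 higher and 4 of 308 lower protein-coding genes (3.31% and 1.3%). The TEAD motif was also present in 11 of 63 ribosome biogenesis genes (17.5%). The E-box was also present in 3 of 17 core YAP targets (17.6%) and 40 of 423 higher protein-coding genes (9.46%). Over all 27305 promoters of the table the shares were 14%, 7.43% and 3.67%. A match is a description of the letters in this window and not a measured site.

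The transgene was measured first. MAML2 (chr11:95976598-96343195) stood at 3.81, 4.30 and 2.77 CPM (counts scaled to effective library size) in the eGFP libraries and at 261, 230 and 238 CPM in the rapamycin-treated no-mCherry libraries. YAP1 (chr11:102110447-102233424) stood at 51.2, 55.4 and 51.8 CPM and at 172, 124 and 150 CPM. All rapamycin-treated libraries lay above all eGFP libraries, with log2 fold changes of 6.06 ± 0.14 (standard error) for MAML2 and 1.49 ± 0.11 for YAP1, at adjusted p of 7.7e-20 and 1.7e-09. Reads of the transgene and of the endogenous genes were counted together. In the no-mCherry DMSO libraries MAML2 stood at 199, 226 and 237 CPM, and its change with rapamycin (0.14 ± 0.10, adjusted p = 0.52) did not pass the test.

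A gene counted as differentially expressed (DEG) when FDR was under 0.1, P was under 0.01 and the log2 fold change was 0.58 or more in size. Rapamycin-treated no-mCherry cells had 1374 DEGs against eGFP cells (7.47% of genes tested), 881 higher (4.79%) and 493 lower (2.68%). In 1348 of them (7.33% of genes tested) the 3 libraries of one group did not overlap those of the other, and the same held for 35.1% of all genes tested whether called or not. The higher DEGs held many genes of low level: 137 of 2840 genes under 1 CPM were higher and 9 lower, whereas 164 of 8508 genes at 20 CPM or more were higher and 224 lower. Among long noncoding RNAs, 294 of 3093 were higher and 22 lower, with a median log2 fold change of 0.30. Among 14056 protein-coding genes, 537 were higher and 420 lower, and among the 11055 of them at 5 CPM or more 315 were higher and 388 lower. The long noncoding RNAs that were lower numbered 12 without rapamycin-treated library 2, 10 without rapamycin-treated library 3 and 10 without eGFP library 3, while those higher ranged from 231 to 312 when any 1 library was left out. The rapamycin-treated libraries also had more genes with at least 1 count, as given above, and the part of that in the long noncoding result was not tested.

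The comparison is the sum of a pair of others that share its libraries, so their values are given side by side and not set against each other. No-mCherry DMSO cells and eGFP cells differ in the fusion, the line and the DMSO treatment, which cannot be told apart. Below, DMSO against eGFP stands for that comparison. No-mCherry cells with DMSO against eGFP cells gave 1079 DEGs (5.87%), 613 higher (3.33%) and 466 lower (2.53%), with 411 to 804 higher when a library was left out and 228 lower without no-mCherry DMSO library 3. Rapamycin against DMSO within the no-mCherry line gave 151 DEGs (0.821%), 85 higher (0.462%) and 66 lower (0.359%). The 85 became 30, 36 and 36 without rapamycin-treated library 1, 2 and 3, 161 without DMSO library 2 and 46 without DMSO library 3. The 66 became 119 without DMSO library 2. The number of genes at an unadjusted p under 0.05 was 2733 (14.9%), and 298 (1.62%) had an adjusted p under 0.05.

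**Figure D1:**
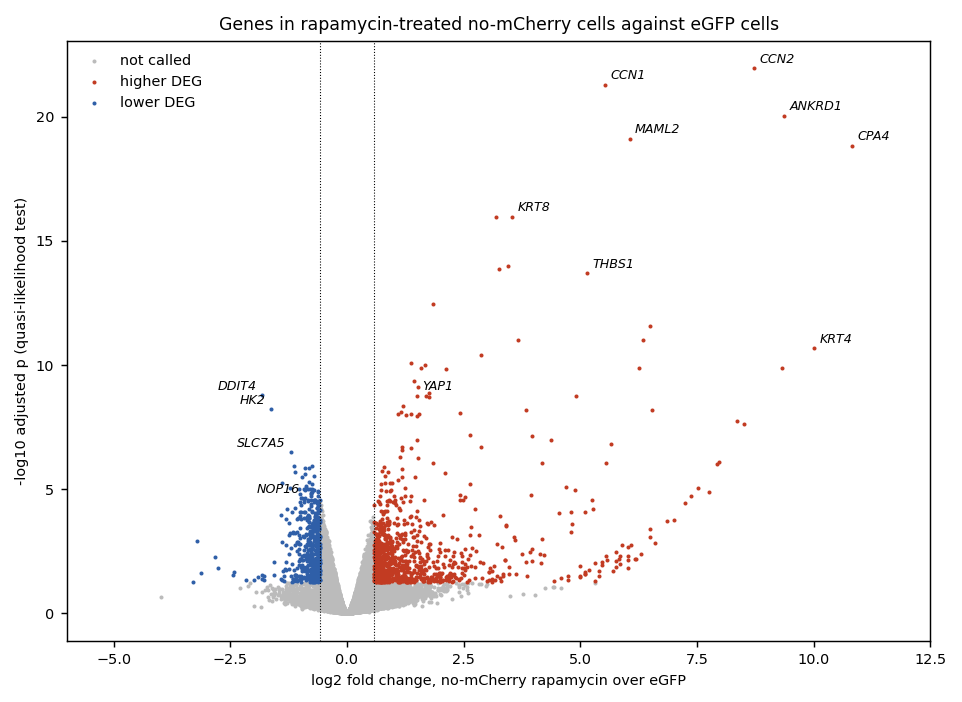
Each point is 1 of the 18391 genes tested, with the log2 fold change of rapamycin-treated no-mCherry cells over eGFP cells on the horizontal axis and −log10 of the adjusted p on the vertical axis. Dotted lines mark a log2 fold change of 0.58 in each direction, 881 higher DEGs are red and 493 lower DEGs are blue. The higher side reaches far beyond the lower side, with CCN2, ANKRD1, CCN1 and MAML2 at the top right and DDIT4 and HK2 highest on the left side.

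The genes with the largest increases were targets of YAP and genes that were barely read in eGFP cells. CCN2 (connective tissue growth factor) stood at 1.37, 1.47 and 0.924 CPM in eGFP libraries and at 542, 545 and 536 CPM in rapamycin-treated no-mCherry libraries. ANKRD1, a nuclear cofactor of muscle and a standard YAP readout, stood at 1.06, 0.648 and 1.58 CPM and at 646, 772 and 742 CPM. CCN1, a matricellular protein, stood at 9.68, 10.3 and 10.7 CPM and at 481, 479 and 460 CPM. None of these groups overlapped. The log2 fold changes were 8.73 ± 0.16 for CCN2, 9.37 ± 0.23 for ANKRD1 and 5.53 ± 0.09 for CCN1. THBS1 (thrombospondin 1) rose by 5.15 ± 0.30 on the log2 scale and IGFBP3, a binding protein of insulin-like growth factors, by 2.25 ± 0.45. IGFBP3 remained low, at 2.33, 3.04 and 3.56 CPM against 0.0625, 1.12 and 0.66 CPM. In a bulk library a change in the number of expressing cells and in RNA per cell cannot be told apart.

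Of genes outside the study's own target set, CPA4, a secreted carboxypeptidase, had 2812 counts over the 3 rapamycin-treated libraries and 1 count over the 3 eGFP libraries, a ratio of 2420 with an exact 95% counting interval of 434 to 95700. KRT4, a keratin of stratified epithelium, had 403 counts and none, at least 116-fold higher when 3 counts over the eGFP group were taken as the floor. TTR (transthyretin) had 251 counts and none, at least 72-fold higher. Across protein-coding higher DEGs, 26 had no count in the eGFP libraries and 34 had 1 to 3 counts. Counting intervals and floors cover counting error only. ALPK2, COL5A3 (a fibrillar collagen chain), IGFBP7 and KRT8 were also among the large increases, with log2 fold changes of 6.33 ± 0.66, 4.91 ± 0.53, 3.66 ± 0.23 and 3.54 ± 0.10.

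Of the 24 core YAP targets, 12 rose, none fell and 12 did not pass, with a median log2 fold change of 0.985 beside 0.0097 for all genes tested (a list member was called at an adjusted p under 0.05, which 7.62% of all genes tested passed as higher and 8.79% as lower). Besides those above, AMOTL2 (3.20 ± 0.10), AJUBA (1.85 ± 0.09), CRIM1 (1.38 ± 0.13) and LATS2 (1.18 ± 0.12) rose. AMOTL2 and LATS2 act in the feedback that restrains YAP. Members that did not pass included AXL at 0.98, NT5E at 0.69, AMOTL1 at -0.34 and DOCK5 at -0.39. LATS2 stood at 11.7, 14.3 and 15.1 CPM in eGFP libraries and at 34.2, 28.6 and 30.1 CPM in rapamycin-treated libraries, without overlap. The same 24 genes had no member called in either direction between rapamycin and DMSO in the no-mCherry cells, where 0.451% of genes were called higher and 1.17% lower, and their median there was 0.0365. In that comparison ANKRD1 differed by -0.16 ± 0.11 (adjusted p = 0.53), CCN2 by -0.06 ± 0.09 (0.79) and CCN1 by 0.00 ± 0.08. In no-mCherry DMSO cells against eGFP cells 11 of the 24 were called higher and 1 lower (7.08% and 6.41% of all genes tested), and the 1 became 0 without DMSO library 1 or 3 or eGFP library 2 or 3.

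In the Hippo pathway itself 5 of 29 genes rose and 4 fell. Those that rose were YAP1, which includes the transgene, AMOTL2, AJUBA, LATS2 and WWC2 (0.49). The 4 that fell were WWC1 (-0.75), AMOT (-0.52), the TEAD family member TEAD4 (-0.44) and the kinase STK4 (-0.39). This lower count became 1 without rapamycin-treated library 2 or 3 or eGFP library 3 and 2 without eGFP library 2. WWC1 and AMOT are scaffolds of the pathway. TEAD1, TEAD2 and TEAD3 were at 0.09, -0.27 and 0.13 and did not pass.

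**Figure D2:**
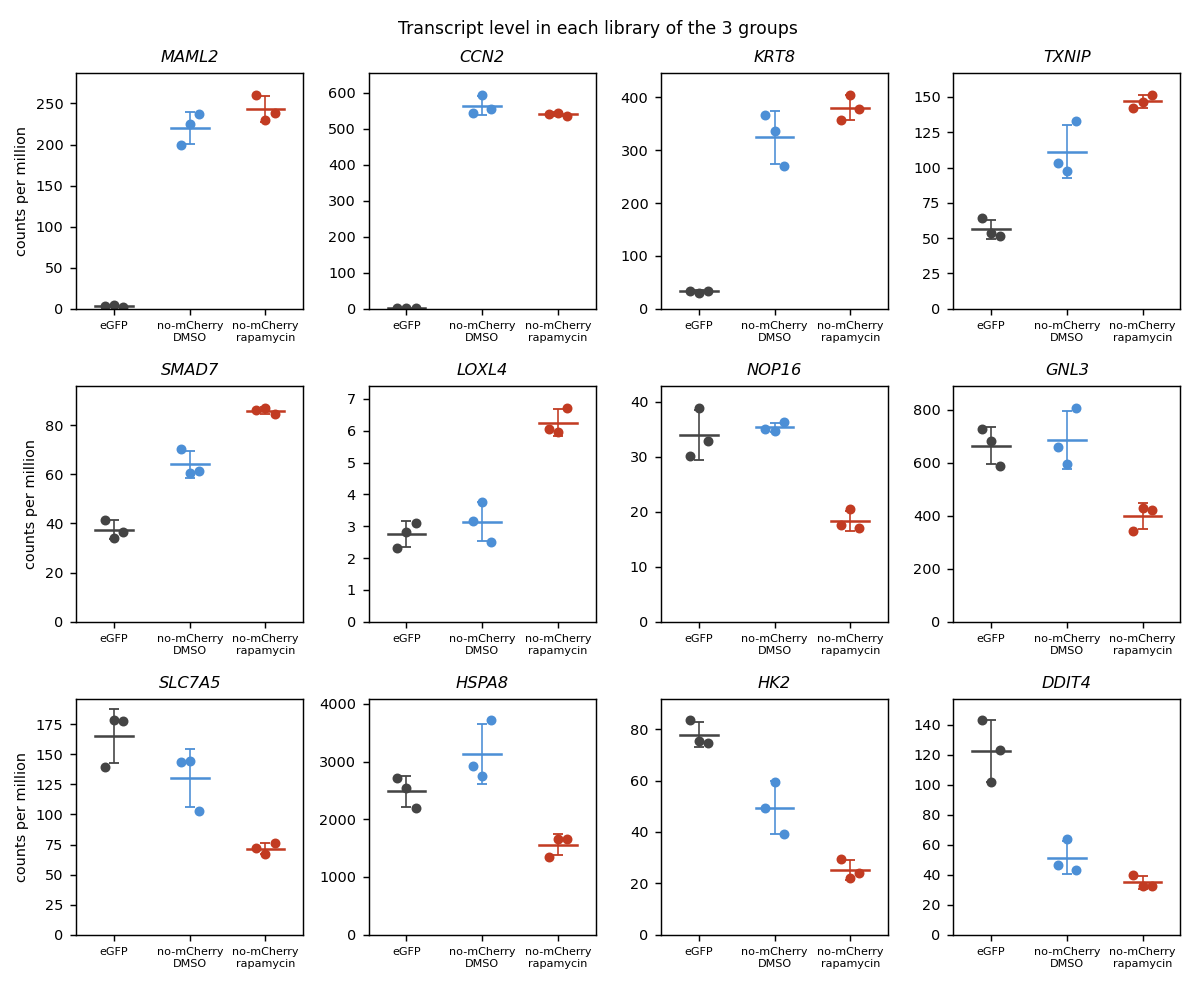
Each panel plots the CPM of 1 gene on a linear axis from 0 in the 3 eGFP, 3 no-mCherry DMSO and 3 no-mCherry rapamycin libraries (points), with the mean as a line and the SD as a bar. MAML2, CCN2 and KRT8 are high in both no-mCherry groups, NOP16, GNL3 and HSPA8 are low with rapamycin alone, LOXL4 is high with rapamycin alone, and HK2, DDIT4, TXNIP and SMAD7 move in steps from left to right.

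The simple epithelial keratins KRT8 and KRT18 were among the clearest increases, while KRT7 and KRT19 did not pass the filter on low counts. KRT8 stood at 34.4, 30.1 and 33.7 CPM in eGFP libraries and at 358, 405 and 378 CPM in rapamycin-treated libraries. KRT18, its partner in simple epithelial filaments, stood at 23.4, 23.5 and 24.5 CPM and at 101, 104 and 106 CPM, a log2 fold change of 2.13 ± 0.13. The annotated KRT8 gene (chr12:52897187-52949954, minus strand) overlaps KRT18 (chr12:52948871-52952906, plus strand), and since the strand setting of the counting is not given, reads in the overlap could not be assigned. CLDN1, a tight junction protein, rose by 1.07, while desmoplakin (DSP, -0.50) and cingulin (CGN, -0.65) fell. E-cadherin (CDH1) was at -0.53 and N-cadherin (CDH2) at 0.12, and neither passed. The list of keratins and epithelial junctions held 28 genes, of which 19 were tested, and of these 4 rose and 2 fell. The 2 became 0 without rapamycin-treated library 2 or eGFP library 2 and 1 without rapamycin-treated library 3 or eGFP library 3.

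Matrix genes moved in both directions. Of 41 matricellular and matrix glycoprotein genes 7 rose and 10 fell. Those that rose included THBS1, periostin (POSTN, 2.87), LOXL4 (1.19), SPARC (0.57), LAMA4 (0.48) and LAMB2 (0.34). Versican (VCAN, -0.61), LAMA1 (-0.59), perlecan (HSPG2, -0.55), fibronectin (FN1, -0.47) and the protease ADAMTS9 (-0.93) were among those that fell. The 10 became 4 without rapamycin-treated library 2, 5 without eGFP library 2 and 3 without eGFP library 3. LOXL4, a collagen cross-linking enzyme, stood at 2.31, 2.83 and 3.10 CPM in eGFP, 3.16, 3.75 and 2.52 CPM in no-mCherry DMSO and 6.05, 5.97 and 6.73 CPM in rapamycin-treated libraries, with a log2 fold change of 0.99 ± 0.21 for rapamycin against DMSO (adjusted p = 0.016). That call was lost without rapamycin-treated library 1 or 3 or DMSO library 3. Of 26 collagen genes 5 rose (COL5A3, COL11A1, COL3A1, COL12A1 and COL14A1) and 3 fell (COL13A1, COL27A1 and COL18A1), beside 7.62% and 8.79% of all genes tested. The 5 became 3 without rapamycin-treated library 2 or 3. The 3 became 5 without rapamycin-treated library 1 or eGFP library 1, 1 without rapamycin-treated library 2 or 3 or eGFP library 3 and 0 without eGFP library 2.

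In TGF-beta, BMP and activin signalling 14 of 45 genes rose and 4 fell, with a median of 0.0823. The ligands TGFB2 (2.63 ± 0.26) and BMP4 (1.51 ± 0.12), the activin antagonist FSTL3 (1.68 ± 0.12) and the targets ID1 (1.17 ± 0.14) and ID3 (0.54) rose. The inhibitory SMAD7 and the repressor SKIL passed the test against eGFP and also between rapamycin and DMSO. SMAD7 stood at 41.6, 34.2 and 36.5 CPM in eGFP, 70.4, 60.4 and 61.3 CPM in no-mCherry DMSO and 86.3, 87.2 and 84.5 CPM in rapamycin-treated libraries. The 3 groups of libraries did not overlap. Its log2 fold changes were 1.20 ± 0.09 against eGFP and 0.43 ± 0.09 for rapamycin against DMSO (adjusted p = 0.016), and those of SKIL were 0.74 ± 0.08 and 0.34 ± 0.08. Both calls between rapamycin and DMSO were lost without any 1 of the rapamycin-treated libraries, and that of SKIL also without DMSO library 1 or 2. BMP6 (-0.77), GDF11 (-0.47), TGFBR3 (-0.42) and BMP7 (-0.34) fell, and this count became 2 without rapamycin-treated library 2.

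Among Notch genes 1 of 22 rose and 5 fell. The ligand JAG1 rose by 1.06, while the ligands DLL4 (-1.33) and JAG2 (-0.70) and the receptors NOTCH1 (-0.56) and NOTCH3 (-0.56) fell. The target HEY1 fell by 0.31, and HES1 and NRARP were at 0.30 and -0.03 and did not pass. The 5 became 1 without rapamycin-treated library 2 and 2 without rapamycin-treated library 3, eGFP library 2 or eGFP library 3. In the neuronal list 4 of 58 genes rose and 8 fell, led by the neurofilament NEFM at 91.4, 110 and 120 CPM in eGFP and 54.1, 51.1 and 52.9 CPM in rapamycin-treated libraries, without overlap (-1.02 ± 0.13). Neurofilament NEFL (-0.56), SEMA3F (-0.82), netrin 1 (NTN1, -0.61) and NRP2 (-0.61) also fell. The 8 became 4 without rapamycin-treated library 2 or 3 or eGFP library 2 and 5 without eGFP library 3. The 4 became 1 without rapamycin-treated library 2 or 3 and 2 without any other of the 6 libraries.

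Wnt, growth factor and AP-1 genes gave some large values, and Wnt and growth factor genes were called in both directions. DKK1, a secreted Wnt inhibitor, rose by 2.88 ± 0.18 and the receptor FZD6 by 0.93. PDGFB (2.68) and HBEGF (1.11) rose among growth factors, of which 7 of 35 list members rose and 9 fell. The 9, which included FGFR4 (-0.88 ± 0.11), ERBB3 (-0.63), EGFR (-0.50) and the insulin receptor substrate IRS4 (-0.51), became 5 without rapamycin-treated library 2 or 3 or eGFP library 3. FGFR4 stood at 48.3, 47.8 and 50 CPM in eGFP, 38.5, 37.6 and 32.0 CPM in no-mCherry DMSO and 27.0, 25.9 and 26.5 CPM in rapamycin-treated libraries. Each step passed the test, at -0.43 (adjusted p = 0.011) and -0.45 (adjusted p = 0.036). The first call was lost without DMSO library 3. The second was lost without any 1 of the rapamycin-treated libraries, without DMSO library 1 or 2, with library size alone and with the replicate number as a block. Of 28 AP-1 and immediate early genes 4 rose (FOSL2 by 1.20, ATF3 by 0.88, EGR4 by 1.96 and KLF10 by 0.37) and none fell. Integrin ITGB8 (1.80) and caveolin CAV1 (1.76) rose among 35 integrin and focal adhesion genes, of which 5 rose and 3 fell in all. Over all genes tested 7.62% were called higher and 8.79% lower, and 3 of 35 is near the latter share. The 5 became 3 without any library but rapamycin-treated library 1. The 3 became 0 without rapamycin-treated library 2, eGFP library 2 or eGFP library 3 and 1 without rapamycin-treated library 3.

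Genes of ribosome synthesis formed the list with the highest share of calls. Of 72 genes for the RNA polymerase I machinery, rRNA processing and ribosome assembly 53 fell, none rose and 19 did not pass, and 25 of the 53 were also DEGs. The median of their log2 fold changes was -0.461. NOP16, a nucleolar protein and MYC target, stood at 30.1, 38.9 and 32.9 CPM in eGFP, 35.0, 34.7 and 36.3 CPM in no-mCherry DMSO and 17.5, 20.4 and 17 CPM in rapamycin-treated libraries. GNL3 (nucleostemin, a nucleolar GTPase) stood at 728, 682 and 587 CPM, 659, 595 and 809 CPM and 342, 430 and 422 CPM in the same order. In both genes the rapamycin-treated libraries lay below all the others, and the eGFP and DMSO libraries overlapped. The log2 fold changes against eGFP were -0.89 ± 0.12 and -0.74 ± 0.12, and those of rapamycin against DMSO were -0.95 ± 0.12 (adjusted p = 0.00025) and -0.79 ± 0.12 (0.0014). POLR1G, a subunit of RNA polymerase I, fell (-1.05 ± 0.17), as did the helicase DDX21 (-0.75 ± 0.08), IMP4 (-0.81 ± 0.09), UTP18 (-0.52 ± 0.09) and nucleolin (NCL, -0.58 ± 0.08). Of members with the E-box in the promoter window 22 of 24 fell, with a median of -0.537, and of members without it 24 of 39 fell, with a median of -0.395. Genes that did not pass included NPM1 (-0.26), NOP58 (-0.11), UBTF (-0.09), POLR1D (0.14) and NOP10 (0.00).

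For the same 72 genes rapamycin against DMSO gave 39 lower and none higher, with a median of -0.448, and no-mCherry DMSO against eGFP gave 9 lower and 1 higher, with a median of -0.0879. The 39 became 20, 24 and 22 without rapamycin-treated library 1, 2 and 3. They became 1 in a fit of these 6 libraries alone, where the median was -0.443 and 2 genes of the whole table had an adjusted p under 0.05. The 9 became 3 without DMSO library 3, 2 without eGFP library 2, 3 without eGFP library 3 and 14 without eGFP library 1. MYBBP1A, a nucleolar MYB-binding protein, was 1 of those 9, and DMSO library 3 stood far below the other two. Its call was lost without that library (-0.24 ± 0.09) or without eGFP library 2 or 3. MYBBP1A stood at 189, 224 and 244 CPM in eGFP, 186, 186 and 111 CPM in no-mCherry DMSO and 125, 108 and 116 CPM in rapamycin-treated libraries. DMSO library 3 lay within the range of the rapamycin-treated libraries and the other DMSO libraries lay between the groups.

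Genes for the ribosomal proteins themselves gave few calls. Of 75 cytosolic ribosomal protein genes 2 rose (RPS29 by 0.57 and RPS15A by 0.42) and none fell, with a median of 0.156. The 2 became 0 without rapamycin-treated library 2 or eGFP library 2 or 3 and 10 without eGFP library 1. RPL4 stood at 3301, 3082 and 2948 CPM in eGFP and 2770, 3153 and 3021 CPM in rapamycin-treated libraries, and the groups overlapped (-0.06 ± 0.09). The median was 0.0481 for rapamycin against DMSO, where no member passed, and turned to -0.0455 without rapamycin-treated library 2 and to -0.0247 without DMSO library 2. Against eGFP the median was 0.0644 without rapamycin-treated library 2, 0.072 without eGFP library 3, 0.232 without rapamycin-treated library 1 and 0.251 without eGFP library 1. These counts are of transcript abundance and say nothing of how often the transcripts were translated. Among 25 translation factors and other transcripts of that class 6 fell, including EIF3B (-0.49), EIF4EBP1 (-0.45), EIF4G1 (-0.43) and EIF5A (-0.42), and this count became 3 without eGFP library 2. Elongation factor EEF2 stood at 4521, 4558 and 4597 CPM in eGFP, 3643, 3695 and 3243 CPM in no-mCherry DMSO and 4528, 4435 and 4544 CPM in rapamycin-treated libraries. It was lower in no-mCherry DMSO cells than in eGFP cells (-0.37 ± 0.08, adjusted p = 0.0036). It was higher with rapamycin against DMSO (0.35 ± 0.08, adjusted p = 0.018) and at -0.02 ± 0.08 over the whole comparison. Its call between rapamycin and DMSO was lost without any 1 of the rapamycin-treated libraries.

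**Figure D3:**
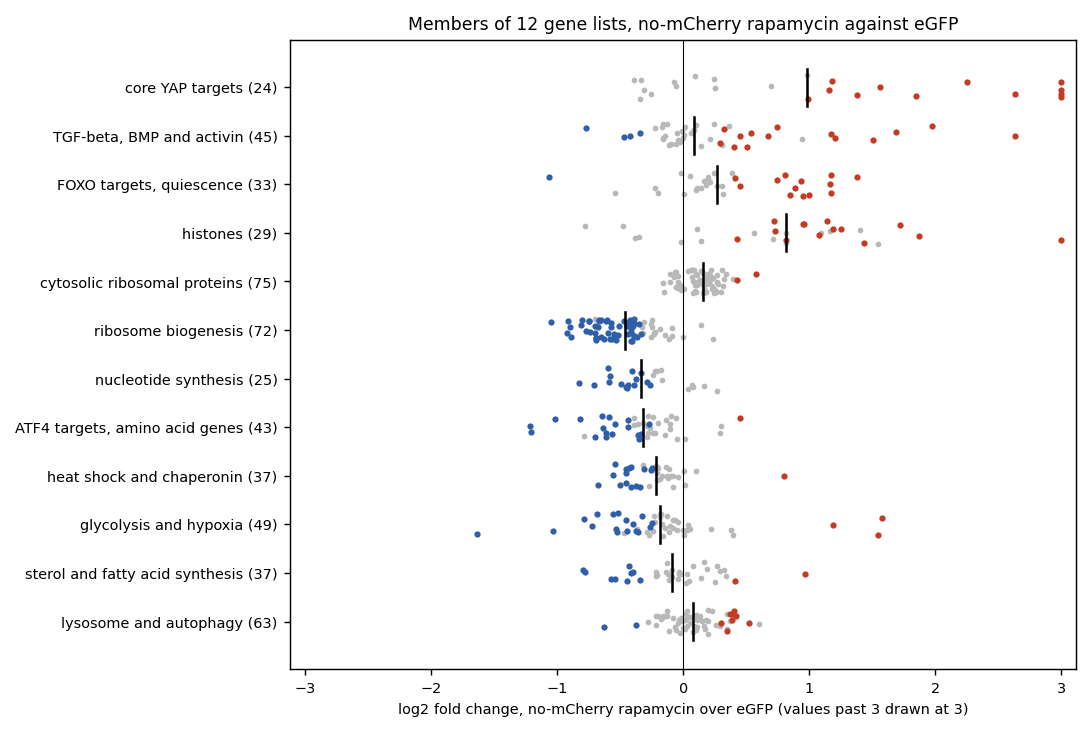
Each point is 1 gene of the 12 lists named at the left (genes tested in parentheses), plotted by its log2 fold change in rapamycin-treated no-mCherry cells over eGFP cells, with the 5 members past 3 drawn at 3. Red and blue points passed at an adjusted p under 0.05, grey points did not, and black bars are list medians, which run from -0.461 for ribosome biogenesis to 0.985 for core YAP targets.

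Of 25 nucleotide synthesis genes 15 fell, none rose and 10 did not pass, with a median of -0.34. PFAS and CAD, large enzymes of purine and pyrimidine synthesis, fell (-0.83 and -0.71), as did the folate enzymes MTHFD1L and MTHFD1 (-0.59 and -0.58) and PPAT, the first committed step of purine synthesis (-0.44). TYMS (0.27) and RRM1 (0.08) did not pass. CAD stood at 182, 216 and 240 CPM in eGFP, 156, 175 and 116 CPM in no-mCherry DMSO and 143, 116 and 130 CPM in rapamycin-treated libraries. DMSO library 3 lay within the range of the rapamycin-treated libraries and the other DMSO libraries lay between the groups. Rapamycin against DMSO called 2 members lower (ADSL and PPAT), with a median of -0.194, and the 2 became 1 without rapamycin-treated library 1 and 4 without DMSO library 3. No-mCherry DMSO against eGFP called 7 lower, with a median of -0.197, and the 7 became 4 without DMSO library 3 and 2 without eGFP library 2 or 3.

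In the list of ATF4 targets, amino acid transporters and tRNA synthetases 18 of 43 genes fell and 1 rose, with a median of -0.324. SLC7A5, the light chain of the LAT1 leucine transporter, stood at 140, 178 and 178 CPM in eGFP, 144, 145 and 103 CPM in no-mCherry DMSO and 71.7, 66.8 and 76.2 CPM in rapamycin-treated libraries. The rapamycin-treated libraries lay below both other groups, with log2 fold changes of -1.21 ± 0.12 against eGFP and -0.86 ± 0.12 against DMSO (adjusted p = 0.00049). STC2 (-1.22), the glycine transporter SLC6A9 (-1.02), the cystine transporter SLC7A11 (-0.82), the serine enzyme PSAT1 (-0.64) and the synthetases YARS1 (-0.65), VARS1 (-0.61) and IARS1 (-0.57) also fell. The glutamine transporter SLC38A2 rose by 0.45. ATF4 itself (-0.22), TRIB3 (-0.11), SESN2 (-0.10) and DDIT3 (0.30) did not pass. Among members with the amino acid response element in the promoter window 3 of 11 fell, and among those without it 10 of 24 fell. Rapamycin against DMSO called 12 of the 43 lower and 1 higher, with a median of -0.283. The 12 became 6 without any 1 of the rapamycin-treated libraries, 7 without DMSO library 1 and 0 in the fit of these 6 libraries alone.

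Of 37 heat shock proteins, co-chaperones and chaperonin subunits 15 fell, 1 rose and 21 did not pass against eGFP (median -0.216). Rapamycin against DMSO called 11 lower and none higher, with 26 that did not pass (median -0.293), and no-mCherry DMSO against eGFP called none lower and 4 higher (median 0.0862). The constitutive chaperone HSPA8 stood at 2714, 2537 and 2191 CPM in eGFP, 2924, 2745 and 3713 CPM in no-mCherry DMSO and 1347, 1655 and 1662 CPM in rapamycin-treated libraries. Rapamycin-treated libraries lay below all others, with log2 fold changes of -0.67 ± 0.12 against eGFP and -1.01 ± 0.12 against DMSO (adjusted p = 0.00017), the largest decrease of that comparison among the genes named by size. Without DMSO library 3 the latter was -0.87 ± 0.11. HSPH1 (-0.56 ± 0.08), HSP90AB1 (-0.54), the endoplasmic reticulum chaperone HSPA5 (-0.46) and the mitochondrial HSPA9 (-0.45) and HSPD1 (-0.43) also fell, and DNAJB4 rose by 0.80. DNAJA1 was lower with rapamycin against DMSO (-0.62 ± 0.12) and higher with DMSO against eGFP (0.42 ± 0.12), and against eGFP it was at -0.20 ± 0.12 and did not pass. The first call was lost without rapamycin-treated library 1, and the second without DMSO library 3 (0.30 ± 0.11) or eGFP library 3. The 11 became 4, 5 and 5 without rapamycin-treated library 1, 2 and 3, 7 without DMSO library 1 and 0 in the fit of these 6 libraries alone. The 4 that were higher became 1 without DMSO library 3 or eGFP library 3 and 2 without DMSO library 1.

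Glycolysis, pentose phosphate and hypoxia genes gave 17 lower and 3 higher of 49, with a median of -0.187. HK2, the inducible hexokinase that starts glycolysis, stood at 83.5, 75.3 and 74.6 CPM in eGFP, 49.5, 59.6 and 39.1 CPM in no-mCherry DMSO and 29.3, 22 and 23.9 CPM in rapamycin-treated libraries. The 3 groups did not overlap, and each step passed the test, at -0.65 ± 0.12 (adjusted p = 0.002) and -0.98 ± 0.13 (adjusted p = 0.00032), for -1.64 ± 0.13 in all. PFKFB4 (-0.79), the pyruvate dehydrogenase kinase PDK1 (-0.69), the glucose transporter SLC2A1 (-0.56), PFKFB3 (-0.53), LDHA (-0.46) and PGAM1 (-0.45) fell. SLC2A3 (1.58), adrenomedullin (ADM, 1.55) and the lactate exporter SLC16A3 (1.19) rose. HIF1A (0.06) and GAPDH (-0.07) did not pass. The 17 became 11 without rapamycin-treated library 2, rapamycin-treated library 3 or eGFP library 2. HK2 and the NDRG1 gene (higher) were the members called between rapamycin and DMSO, and NDRG1 lost its call without any 1 of the rapamycin-treated libraries or DMSO library 1. With DMSO against eGFP 18 were lower, and 10 without DMSO library 3, eGFP library 2 or eGFP library 3.

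Of 37 lipid synthesis genes 9 fell and 2 rose (8.79% and 7.62% of all genes tested), and the 9 became 5 without rapamycin-treated library 2. The fatty acid enzymes ACACA (-0.79), FASN (-0.78 ± 0.14), ELOVL6 (-0.57), ACLY (-0.55) and SCD (-0.42) fell, with the regulator SREBF1 (-0.44), while the fatty acid desaturase FADS2 rose by 0.41, a call lost without eGFP library 2. In the sterol branch LSS (-0.43) and DHCR7 (-0.35) fell, SC5D rose by 0.97 ± 0.12, and HMGCS1 (-0.02) did not pass. IDI1, the isopentenyl diphosphate isomerase, stood at 87.0, 80.5 and 71.9 CPM in eGFP, 117, 116 and 212 CPM in no-mCherry DMSO and 87.0, 110 and 105 CPM in rapamycin-treated libraries. It passed as higher with DMSO against eGFP (0.89 ± 0.17, adjusted p = 0.0017), and DMSO library 3 was far above the others. Without that library the difference was 0.55 ± 0.11 (adjusted p = 0.0044). Rapamycin against DMSO (-0.56 ± 0.17, adjusted p = 0.091) and rapamycin against eGFP (0.34 ± 0.17, adjusted p = 0.18) did not pass.

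**Figure D4:**
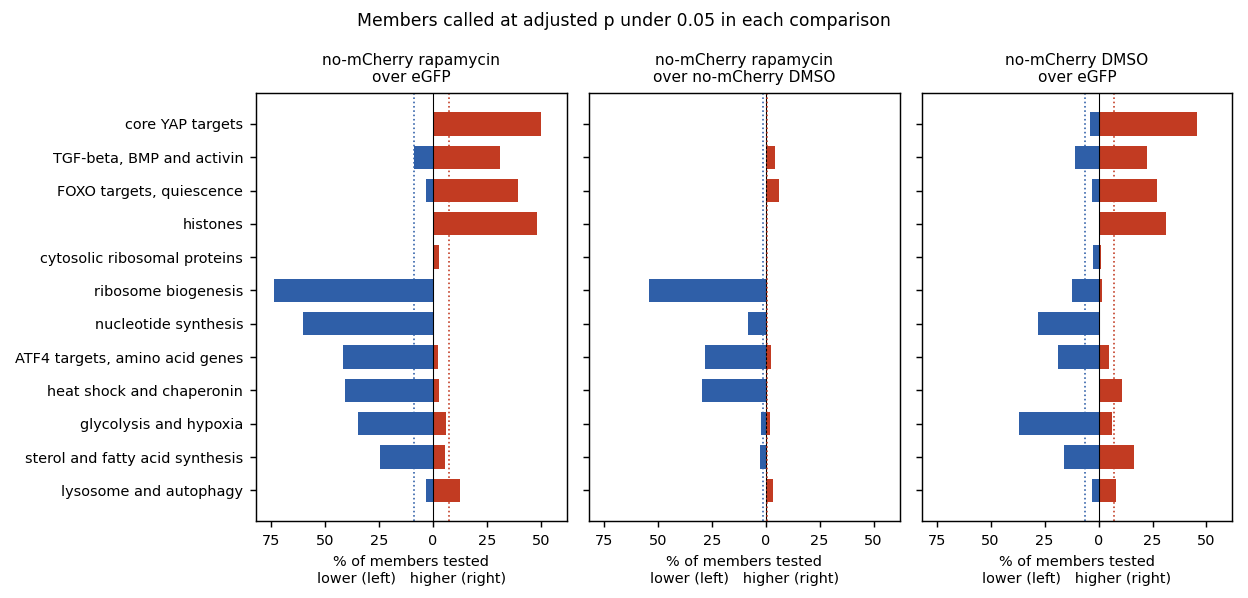
Bars give the share of each list's tested members called at an adjusted p under 0.05, lower to the left in blue and higher to the right in red, for the 3 comparisons named above the panels. Dotted lines are the shares of all genes tested. Core YAP targets are called in the outer panels and not in the middle one, while ribosome biogenesis and heat shock genes are called lower mainly in the left and middle panels.

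Of 33 FOXO targets and genes of quiescence 13 rose, 1 fell and 19 did not pass, with a median of 0.265. TXNIP, which restrains glucose uptake, stood at 64.1, 54.0 and 51.2 CPM in eGFP, 103, 97.8 and 133 CPM in no-mCherry DMSO and 142, 147 and 152 CPM in rapamycin-treated libraries, and the groups did not overlap. Its log2 fold change was 1.38 ± 0.11 against eGFP, 0.98 ± 0.11 for DMSO against eGFP and 0.40 ± 0.11 for rapamycin against DMSO, and this last did not pass (adjusted p = 0.064). YPEL3 rose by 1.17 ± 0.13 and by 0.69 ± 0.13 with rapamycin against DMSO (adjusted p = 0.0045), and KLHL24 rose by 0.93 and 0.61. CITED2 (1.17), ARRDC3 (1.0), YPEL5 (0.95), TP53INP1 (0.88) and the cyclin-dependent kinase inhibitors CDKN2B (0.85) and CDKN1B (0.81) also rose, and KLF15 fell by 1.06 ± 0.17. Rapamycin against DMSO called those 2 members, YPEL3 and KLHL24, and gave a median of 0.227. The 2 became 1 without rapamycin-treated library 3 or DMSO library 1 and 5 without DMSO library 3. The DMSO-treated cells against eGFP had 9 higher and 1 lower, with a median of 0.0573, and the 1 became 0 without DMSO library 3 or eGFP library 2 or 3 and 3 without DMSO library 2.

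Of mTORC1 regulators, DDIT4 (REDD1), a stress-induced inhibitor of mTORC1, gave the largest decrease of the whole comparison among the genes named by size. It stood at 143, 102 and 123 CPM in eGFP, 46.2, 63.7 and 43.4 CPM in no-mCherry DMSO and 39.9, 32.1 and 32.4 CPM in rapamycin-treated libraries, without overlap. The log2 fold change was -1.81 ± 0.13, made of -1.26 ± 0.13 (adjusted p = 7.5e-07) and -0.56 ± 0.13 (adjusted p = 0.034). The last call was lost without rapamycin-treated library 2 or 3 or DMSO library 2 and with library size alone. FKBP5 (-0.59), GRB10 (-0.50) and FKBP4 (-0.42) also fell, and RICTOR (0.62), SESN1 (0.46), RRAGB (0.44), RRAGC (0.42) and RRAGA (0.28) were among the 6 that rose. RICTOR is a subunit of mTORC2, the other complex of the mTOR kinase, and not a regulator of mTORC1. MTOR (-0.19), RPTOR (-0.32), FKBP1A (-0.13), which encodes FKBP12, and the ribosomal S6 kinase RPS6KB1 (-0.06) did not pass. The 6 that rose became 2, 1, 3, 1 and 2 without rapamycin-treated library 2, rapamycin-treated library 3, eGFP library 1, eGFP library 2 and eGFP library 3.

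Lysosome, V-ATPase and autophagy genes shifted little, with 8 of 63 higher, 2 lower and a median of 0.0797. Cathepsin F (CTSF, 0.52), RRAGC (0.42), MITF (0.40), GABARAPL1 (0.39), ATP6V1G1 (0.37), NPC2 (0.34) and CTSD (0.30) were among those that rose, and the regulator TFEB (-0.63) and UVRAG (-0.38) fell. The 8 became 3 without rapamycin-treated library 2 or 3 or eGFP library 2 and 2 without eGFP library 3, and the 2 became 1 without any of these 4. SQSTM1 (0.11), LAMP1 (-0.07) and ULK1 (0.26) did not pass. Rapamycin against DMSO called CTSF and GAA higher, and neither was called without any 1 of the rapamycin-treated libraries or DMSO library 1.

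Replication-dependent histone genes rose in 14 of 29 tested cases and fell in none, with a median of 0.815. The list held 50 genes, and those not tested did not pass the filter on low counts. The 14 became 8 without eGFP library 3. H2BC12, H1-2 and H3C6 rose by 0.43, 0.73 and 0.81. Many members were at low level in these polyA-selected libraries, H2BC21 for example at 1.12, 2.24 and 0.924 CPM in eGFP and 3.06, 3.90 and 2.63 CPM in rapamycin-treated libraries. Their canonical transcripts have no polyA tail, so their counts depend on the minority that are adenylated. Between rapamycin and DMSO no member passed. Of 52 cell cycle genes 8 rose and 7 fell. Cyclin CCND1 (-1.01), CDK6 (-0.53) and CCND2 (-0.42) fell, and CDKN2C (0.69), WEE1 (0.66), CDC25C (0.55), TTK (0.52) and CENPE (0.48) rose. MKI67 was at 0.06 and PCNA at 0.15, and neither passed. The 8 became 4 without rapamycin-treated library 2 or 3, 5 without eGFP library 2 and 3 without eGFP library 3.

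Genes with large responses to rapamycin within the no-mCherry line are given here beside their values in no-mCherry DMSO cells against eGFP cells. Both comparisons use the same DMSO libraries with opposite sign. Shared error therefore favours opposite signs between them, which are not read as a result. TAF1A was not among the genes named by size and was chosen after its values were seen. DYRK1B, a kinase of quiescent cells, stood at 9.0, 9.55 and 10.6 CPM in eGFP, 9.0, 10.6 and 6.32 CPM in no-mCherry DMSO and 17.6, 17.8 and 15.7 CPM in rapamycin-treated libraries (0.98 ± 0.15 against DMSO, adjusted p = 0.0014). FRAT1, which binds the kinase GSK3, was lower with DMSO against eGFP (-0.47 ± 0.15, adjusted p = 0.047) and higher with rapamycin against DMSO (0.97 ± 0.15, adjusted p = 0.0014). BMF, a proapoptotic BH3-only protein, went from 7.87, 9.43 and 7.06 CPM in eGFP to 5.15, 5.22 and 4.68 CPM in DMSO and 9.55, 10.4 and 9.14 CPM in rapamycin-treated libraries. BMF differed in each step (-0.70 ± 0.18 and 0.95 ± 0.17) and not over the whole comparison (0.26 ± 0.17, adjusted p = 0.32). ABTB1 (0.93 ± 0.17) and the lysosomal enzyme GALC (0.89 ± 0.21) were also higher with rapamycin. TAF1A, a subunit of the RNA polymerase I selectivity factor, was higher with DMSO against eGFP (0.64 ± 0.15), lower with rapamycin against DMSO (-0.73 ± 0.15) and at -0.09 ± 0.15 over the whole comparison. CHAC1, a glutathione-degrading ATF4 target, was lower with rapamycin against DMSO (-0.97 ± 0.24, adjusted p = 0.036) and did not pass against eGFP (-0.39 ± 0.24, adjusted p = 0.30). With DMSO against eGFP, the call of FRAT1 was lost without DMSO library 1 or 2 or eGFP library 2 or 3, that of BMF without DMSO library 3 or eGFP library 2, and that of TAF1A without DMSO library 3 or eGFP library 2 or 3. The rapamycin call of TAF1A was lost without rapamycin-treated library 1 or 3 or DMSO library 3. The rapamycin calls of CHAC1 and GALC were lost without any 1 of the 6 libraries other than DMSO library 2. In the fit of the 6 no-mCherry libraries alone 14 of the 16 genes named by size in the rapamycin comparison lost their call, all without a change of sign.

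Since SPARK-OFF cells were also given rapamycin, the rapamycin-treated no-mCherry cells were tested directly against them. These groups share the drug and the fusion and differ in condensate state, in the Frb-tagged mCherry, in the line and in transgene level, which cannot be told apart. MAML2 stood at 553, 563 and 504 CPM in SPARK-OFF rapamycin libraries, a log2 fold change of -1.15 ± 0.10 for the no-mCherry cells (adjusted p = 8.5e-08). There were 1027 DEGs (5.58%), 581 higher in the no-mCherry cells (3.16%) and 446 lower (2.43%). Of core YAP targets 13 of 24 were lower in the no-mCherry cells and 3 higher (7.07% and 6.88% of all genes tested), and the 3 became 1 without SPARK-OFF rapamycin library 2. CCN2 stood at 911, 898 and 899 CPM in SPARK-OFF libraries (-0.74 ± 0.09) and CCN1 at 902, 890 and 872 CPM (-0.91 ± 0.08), in each case above all no-mCherry libraries. ANKRD1 did not pass (-0.04 ± 0.11, adjusted p = 0.87), with 669, 768 and 784 CPM in SPARK-OFF libraries overlapping the no-mCherry range. The largest decreases by the naming rule were the natriuretic peptide NPPB (-2.44 ± 0.16), endothelin EDN1 (-2.06 ± 0.27), the receptor TNFRSF12A (-1.99 ± 0.12) and COL12A1 (-1.98 ± 0.22). The AP-1 member FOSL2 was lower by -1.49 ± 0.14, and 10 of 28 AP-1 genes were lower and 3 higher.

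Genes linked to growth also separated the rapamycin-treated lines. Of ribosome biogenesis genes 46 of 72 were lower in the no-mCherry cells and none higher, with a median of -0.449, and of heat shock genes 19 of 37 were lower. POLR1G stood at 3.06, 3.34 and 2.79 CPM in no-mCherry and 8.82, 9.03 and 9.27 CPM in SPARK-OFF libraries (-1.56 ± 0.16). SLC7A5 stood at 172, 157 and 160 CPM in SPARK-OFF libraries, within or near the eGFP range of 140 to 178 CPM and above the no-mCherry rapamycin range, and the difference was -1.19 ± 0.12 (adjusted p = 8e-07). HK2 (-0.93 ± 0.13) and HSPA8 (-0.78 ± 0.12) were also lower, whereas DDIT4 (0.00 ± 0.13) did not differ beyond its error. Ribosomal protein genes went the other way, with 45 of 75 higher and none lower (median 0.381). That count became 22 without SPARK-OFF rapamycin library 1, 23 without library 2 of that group, 19 without rapamycin-treated no-mCherry library 2 and 29 without library 3. In the retinoic acid and HOX list 24 of 45 were higher and 1 lower. The 24 became 15 and 14 without SPARK-OFF rapamycin libraries 2 and 3, 13 without any 1 of the rapamycin-treated no-mCherry libraries and 13 when counts were scaled by library size alone. KRTAP19-1 (2.58 ± 0.15), KANK3 (1.53 ± 0.14) and the transcription factor MAF (1.5 ± 0.14) were among the genes higher in no-mCherry cells. MAF stood at 73.0, 68.7 and 78.3 CPM there and 24.1, 29.7 and 23.8 CPM in SPARK-OFF libraries, beside 85.8, 74.0 and 79.7 CPM in eGFP cells.

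**Figure D5:**
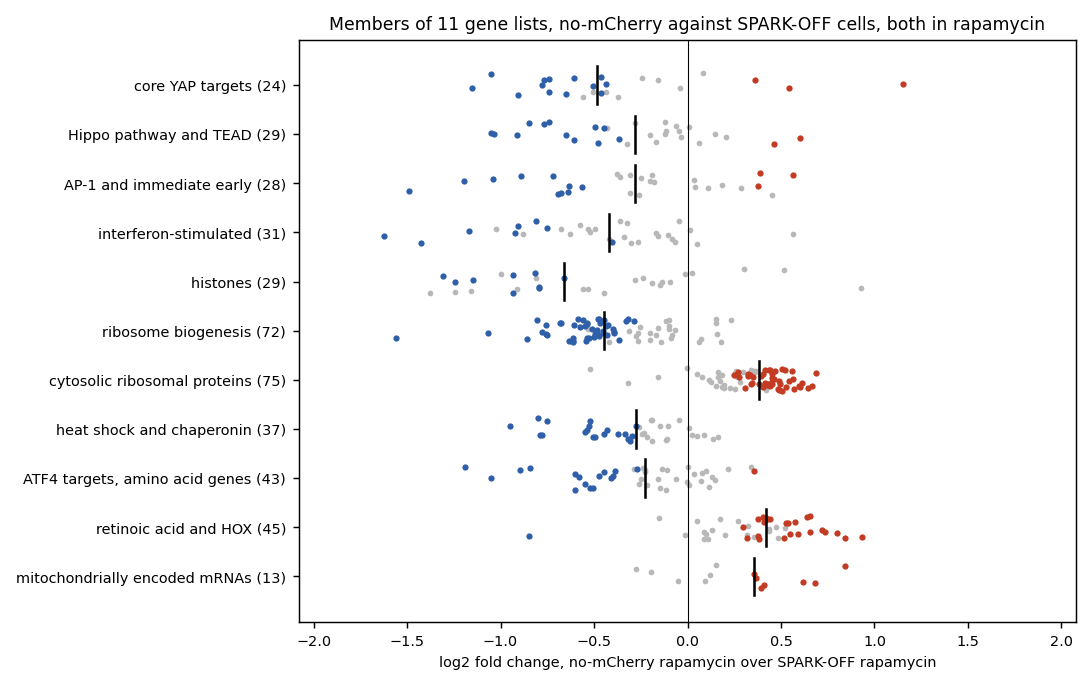
Each point is 1 gene of the 11 lists at the left, plotted by its log2 fold change in rapamycin-treated no-mCherry cells over rapamycin-treated SPARK-OFF cells, with red and blue points passing at an adjusted p under 0.05 and black bars at list medians. Core YAP, interferon, histone, ribosome biogenesis and heat shock genes lie mostly to the left, ribosomal protein, HOX and mitochondrial mRNA genes mostly to the right, with medians from -0.659 for histones to 0.421 for the HOX list.

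Markers of other lineages were rare in the libraries. Of 16 markers of blood, endothelium, muscle, liver, melanocytes, glia, fat, lung and other lineages, 9 did not pass the filter on low counts in the fit, among them PTPRC, CD3E, HBB, PECAM1 and ALB, and 7 were tested. PMEL passed at 0.53, a call lost without rapamycin-treated library 1 or 3 or eGFP library 1 or 2, and the other 6, such as SYP (0.14) and MYOD1 (0.03), did not pass. Of 12 genes that HEK293 cells are known to express all were read. VIM (0.01) did not pass, LIN28B (-0.52) and nestin (NES, -0.49) fell, along with the neurofilaments, and KRT8 and KRT18 rose.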

How the data were processed

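PolyA RNA was sequenced from 15 libraries, 3 in each of 5 groups. The authors trimmed reads with fastp and aligned them to hg38 with STAR, the submitters' processing notes also name FastQC, HTSeq and edgeR, and raw counts per gene were deposited. For tool versions, the annotation and the counting's strand setting the sources used here give nothing. Of 61533 gene identifiers 61369 matched GENCODE 44 without their version, which gave symbols, types and coordinates. Genes were filtered with filterByExpr, scaled by TMM (factors 0.901 to 1.05) and fitted over all 15 libraries, which share 1 estimate of the spread, with edgeR 4.0.16 in R 4.3.3. Every adjusted p is from its quasi-likelihood test, Benjamini-Hochberg adjusted over all 18391 genes. SE is the standard error of the log2 fold change. The fit was tested on simulated data before use.

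The genes and lists were chosen with earlier results of these data known. Named genes were the fusion partners, the study's own targets, the 12 largest increases and decreases (8 in the rapamycin and SPARK-OFF comparisons) among protein-coding DEGs of at least 5 CPM without overlap, up to 4 list members per direction by adjusted p, and members with a defining role. Other list members were chosen after their values were seen. Promoters came from RefSeq and the genes shown were likewise chosen after their values were seen. Some genes are not reported here by name, and list counts include them. Alternatives were RLE scaling, library size alone, other filters, DESeq2 1.42.0, a fit of the compared groups alone, the replicate number as a block and each library left out. Alternatives for list counts and single genes outside the comparison with eGFP, and for gene types, were added after seeing the data.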

Additional observations from a re-analysis of the deposited data

How the results depend on the processing

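No gene named by the rule and tested under these alternatives changed sign, but a list median and shares of DEGs did cross their midpoint. Most of these genes were named for their size or adjusted p, which favours a kept sign. Against eGFP, leaving out a library left the call unchanged in 953 results for named genes and lost it in 211. With library size alone the call was unchanged for 174 and lost for 20. Not all of these losses are marked beside the gene. The median of the cytosolic ribosomal protein genes for rapamycin against DMSO was 0.0481, but -0.0455 without rapamycin-treated library 2 and -0.0247 without DMSO library 2. The number of DEGs against eGFP lay between 757 and 980 higher and between 407 and 573 lower with a library left out, and was 945 and 524 by DESeq2, 1125 and 476 with no filter, 915 and 423 with library size alone and 797 and 460 with the groups compared alone. Rapamycin against DMSO was less stable. Its 66 lower DEGs became 39 with library size alone, its 85 and 66 became 20 and 36 with the groups compared alone, and with a library left out they lay between 30 and 161 and between 51 and 119. The share of its DEGs that were higher was 56.3%, but 68.8% with library size alone, 35.7% with the groups compared alone and 37%, 37.1% and 34.6% without rapamycin-treated library 1, 2 and 3. At an adjusted p under 0.05 it had 298 genes, 760 by DESeq2 and 2 with the groups compared alone. In that last setting no-mCherry DMSO against eGFP went from 2481 to 533 genes. Rapamycin-treated cells went from 3019 to 3538 against eGFP and from 2566 to 3920 against SPARK-OFF cells. The number thus fell only where no-mCherry DMSO libraries were used, and the reason was not tested. DEGs of no-mCherry DMSO against eGFP lay between 411 and 804 higher and between 228 and 671 lower, the 228 without DMSO library 3. The comparison with SPARK-OFF cells lay between 520 and 564 higher and between 386 and 435 lower, and the share higher of 56.6% became 44.5% with library size alone. Same-numbered libraries did not deviate together (30 pairs, correlations -0.124 to 0.0855, 0 over 0.1), so the numbers were not taken as pairs. With the replicate number as a block there were 853 and 488 DEGs against eGFP and 68 and 58 between rapamycin and DMSO. Depth limits the folds of genes barely read in the eGFP libraries, which are given as bounds or with counting intervals.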

Other observations

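Of 21 feedback regulators of MAPK signalling 15 did not pass against eGFP, with a median of 0.0081. The members called were 5 lower (PHLDA2 by -1.34, DUSP2 by -0.84, DUSP5 by -0.70, DUSP16 by -0.58 and DUSP7 by -0.33) and DUSP1 higher by 0.82. The 5 became 3, 1 and 3 without rapamycin-treated library 1, 2 and 3, 2 without eGFP library 1 and 3 without eGFP library 3. The interferon-stimulated list held 40 genes, of which 31 passed the filter on low counts. Among these 31, 4 were higher (IRF7 by 1.06, IFI6 by 0.90, SAMD9 by 0.86 and DDX60 by 0.65) and none lower, and the 4 became 2 without eGFP library 2. The retinoic acid and HOX list had 9 of 45 higher and 3 lower (CYP26A1 by -0.75, CRABP2 by -0.65 and RARA by -0.56). The 9 became 3 without rapamycin-treated library 2, 4 without eGFP library 2 and 3 without eGFP library 3. The retinol receptor STRA6 had 34 counts over the rapamycin-treated libraries and 3 over the eGFP libraries, a ratio of 9.76 with an exact 95% counting interval of 3.07 to 49.7.

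Cytoskeletal targets of SRF and MRTF had 5 of 18 lower, such as ACTN1 (-0.51), and none higher, and the 5 became 0 without rapamycin-treated library 2 or 3 and 1 without eGFP library 2 or 3. In the MYC network MXD1 (0.80) and MXD3 (0.92), which oppose MYC, were higher, and MYC (-0.37) and MLXIP (-0.47) were lower. Those 2 lower calls became 0 without rapamycin-treated library 2 or 3 or eGFP library 3 and 1 without eGFP library 2. Of 33 proteasome genes PSMA1 (0.74) was higher and none was lower, and 3 of 19 snoRNA host genes were lower (SNHG3, SNHG17 and SNHG16). Of 35 Wnt genes 4 were higher and 5 lower (7.62% and 8.79% of all genes tested). The 5 became 0 without rapamycin-treated library 2, 3 without rapamycin-treated library 3 or eGFP library 1, and 2 without eGFP library 2 or 3. The 4 became 2 without rapamycin-treated library 3 or eGFP library 3.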
